A study of Mus musculus with 6 samples.

Results

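Globin chains and the genes of red cell formation were followed in the mouse, across colonies grown from gonadal or testis cells and sorted testis cells. The group holds 9 genes chosen by symbol: the adult globins Hbb-b1 and Hba-a1, the embryonic globins Hbb-bh1 and Hba-x, the haem enzyme Alas2, the membrane transporter Slc4a1, the transcription factors Klf1 and Gata1, and the receptor Epor. Of these, 8 had a named probe, 1 probe each, among 19084 genes with a probe. Hba-a1 was not analysed here. The filter on dim probes left 7 members among 15459 genes tested, and Slc4a1 did not pass it.

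All cells came from ICR mice. PGC colonies (2 arrays) were grown from total gonadal cells of 67 embryos at E11.5 (embryonic day), PGC being primordial germ cell. GSC colonies (2 arrays) were grown from total testis cells of 80 mice, newborn to postnatal day 2, and the labels spell GSC out as glandular stem cell. Both cultures ran for 7 days under 5% O2 on laminin (200 ng/cm2), in MCDB-201 medium with insulin, transferrin, selenium and epidermal growth factor (10 ng/mL), and colonies were then picked. CD49f+ sorted cells (2 arrays) came from total testis cells of 100 mice, newborn to postnatal day 2, captured on magnetic beads by an antibody to CD49f (integrin alpha 6, encoded by Itga6), with no culture named and with physiological hypoxia given as their condition. Animals were pooled. No source used here says whether paired arrays came from separate preparations, so p-values rest on a spread that may be technical only. Culture, colony picking and the magnetic sort cannot be told apart in a comparison of colonies with sorted cells.

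Red cell precursors make haemoglobin, a tetramer of alpha-type and beta-type globin chains that each hold a haem. In the mouse embryo, primitive red cells from the yolk sac use the embryonic chains Hba-x (zeta) and Hbb-bh1, and definitive red cells from the fetal liver, and later the bone marrow, use adult alpha and beta chains. Erythropoietin acting through Epor keeps the precursors alive, while Gata1 and Klf1 switch on globin, haem and membrane genes through GATA and CACCC motifs in their promoters and enhancers. In the mouse testis, Gata1 is also made by Sertoli cells, the somatic cells that nurse germ cells.

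The arrays measured Cy5-labelled RNA on a single colour. Median deposited intensity over all probes was 587 and 541 on the PGC colony arrays and 606 and 558 on the GSC colony arrays, against 393 and 406 on the sorted arrays, and arrays of a pair correlated at 0.976 to 0.990. Itga6, the target of the sort, had a normalized log2 mean of 12.39 in PGC colonies and 11.81 in GSC colonies, against 12.18 in sorted cells and so lay between the colonies there. Of 12 germ cell markers, 5 lay under the 30th percentile of the array on each PGC colony array and 2 on each GSC colony array, against 4 on each sorted array; Dppa3 and Tdrd1 lay under it on all 6.

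In brief, the adult beta globin Hbb-b1 was measured above the 30th percentile in sorted cells alone, and Gata1, Epor and Alas2 were lower in both kinds of colony than in sorted cells, for Alas2 in PGC colonies by a small margin that depended on scaling. The embryonic globin Hba-x was at a like position on every array, and Hbb-bh1 and Klf1 showed small differences that depended on how arrays were scaled. In the limma fit, 6 of 7 tested members were lower and 0 higher in PGC colonies than in sorted cells, where 46% of all tested genes passed in either direction, 22.8% higher and 23.2% lower. In GSC colonies 6 of 7 were lower and 0 higher than in sorted cells, where 47.1% of all tested genes passed, 22.5% higher and 24.5% lower. Between PGC and GSC colonies 1 of 7 passed, Alas2, higher in PGC colonies, where 15.1% of all tested genes passed, 7.08% higher and 7.98% lower. Both comparisons with sorted cells share the same 2 sorted arrays, and both counts include Hbb-b1, which passed the filter only through those arrays, so the counts are a description. Without sorted replicate 1 or 2, Hbb-b1 was no longer tested, and 2 members were lower in PGC colonies (Gata1 and Epor) and 3 in GSC colonies (Alas2, Gata1 and Epor).

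The median difference of the 7 members was -0.56 for PGC colonies minus sorted cells, beside -0.02 over all tested genes. For GSC colonies minus sorted cells it was -1.29 (-1.03 with dim genes at their bound), beside -0.01 over all tested genes. For PGC minus GSC colonies it was 0.03, beside 0.01 over all tested genes. The median member thus lay below the typical gene in both comparisons with sorted cells and beside it between the colonies. These medians include Hbb-b1, which passed the filter only through the sorted arrays. The PGC median against sorted cells is the value of Alas2, whose call there depended on scaling. The medians are therefore a description. All differences are log2 values, given ± SE, with adjusted p from limma's moderated test over all tested genes.

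**Figure D1:**
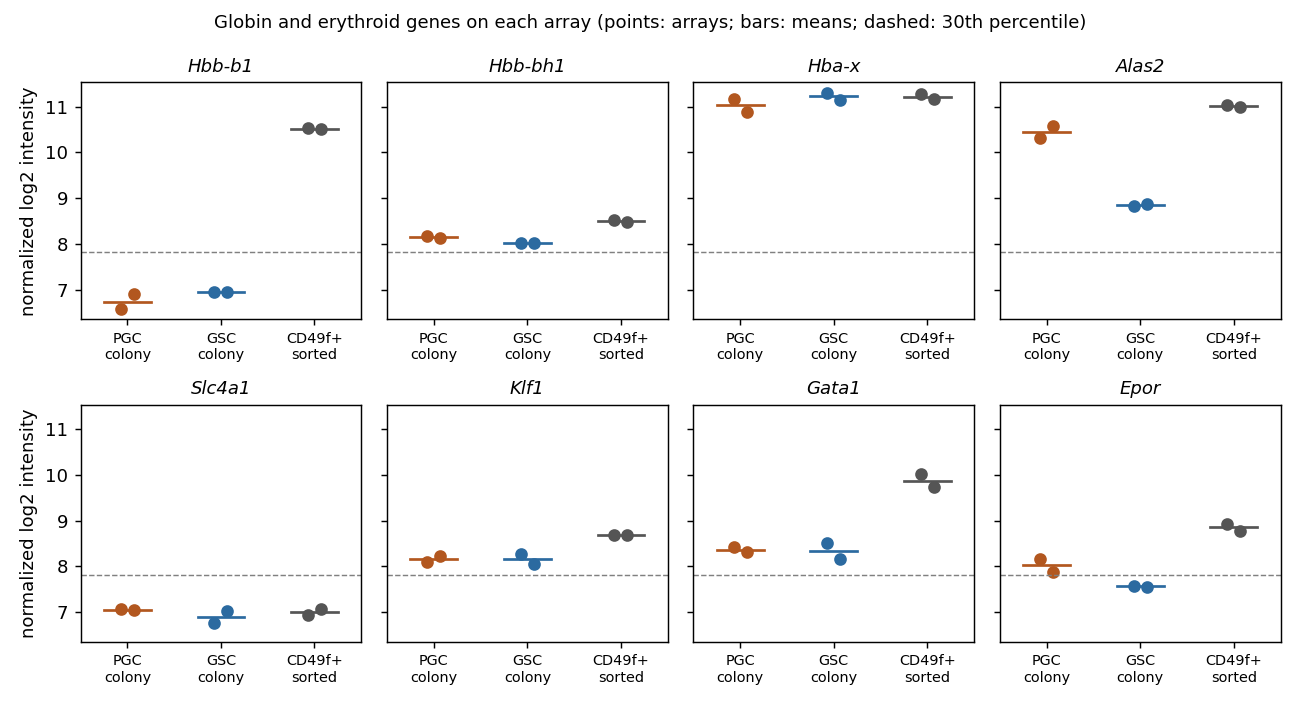
Normalized log2 intensity of the 8 measured members (vertical axes) on each array (points) of PGC colonies, GSC colonies and CD49f+ sorted cells (2 arrays each), with bars for group means and a dashed line at the 30th percentile (7.82). Hbb-b1 lies above the line on the sorted arrays alone, Slc4a1 lies under it on all 6, and Alas2 is at 10.45 in PGC colonies, 8.85 in GSC colonies and 11.01 in sorted cells.

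Hbb-b1 encodes the major adult beta chain. Its probe (PH_mM_0014524) read a deposited intensity of 69.6 and 67.4 in PGC colonies and 119.9 and 58.5 in GSC colonies, against 1101 and 1125 in sorted cells. The sorted arrays stood far above all 4 colony arrays, with no overlap. On their own arrays these readings lay at percentiles 6.7 and 12.6 in PGC colonies and 13.8 and 13.6 in GSC colonies, against 66.8 and 66.6 in sorted cells. Since the colony readings lay under the 30th percentile, only a bound on the difference can be given: the level of the filter, or the probe's own level where higher, stands in for the dim group. Hbb-b1 in PGC colonies was at least 6.51-fold lower than in sorted cells (limma adjusted p = 6.7e-06). It was at least 6.50-fold lower in GSC colonies than in sorted cells (limma adjusted p = 6.3e-06). Both colony groups lay under the filter level, so no fold between them is given. Hbb-b1 passed the filter only through the 2 sorted arrays, where it was high, so its place among the tested members had to come with a difference. In the fit with no filter on dim probes, over 19084 genes, its limma adjusted p was 6.8e-06 for PGC colonies and 6.3e-06 for GSC colonies against sorted cells. In these bulk samples, fewer cells that make a transcript and less of it per cell cannot be told apart.

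Hbb-bh1 encodes an embryonic beta-type chain of primitive red cells. It read 288.6 and 238.8 in PGC colonies and 267.6 and 208.9 in GSC colonies, against 238.9 and 240.8 in sorted cells. On this deposited scale the groups overlapped. After normalization the means ± SD (n = 2 each) were 8.14 ± 0.03 in PGC colonies and 8.02 ± 0.01 in GSC colonies, against 8.50 ± 0.02 in sorted cells, with no overlap between colonies and sorted cells. The difference from sorted cells was -0.36 ± 0.10 in PGC colonies (limma adjusted p = 0.027) and -0.48 ± 0.10 in GSC colonies (limma adjusted p = 0.0084). PGC minus GSC colonies gave 0.12 ± 0.10, with a 95% interval of -0.12 to 0.36, which did not pass. Without normalization between arrays the PGC difference turned to 0.031 (limma adjusted p = 0.82), the GSC difference shrank to -0.13 (limma adjusted p = 0.32), and neither passed. The PGC call was also lost without PGC replicate 2, either GSC array or either sorted array, and the GSC call without either GSC or either sorted array.

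Hba-x encodes zeta globin, the embryonic alpha-type chain. It read 2527 and 2039 in PGC colonies and 2782 and 2597 in GSC colonies, against 1848 and 1779 in sorted cells. Every colony reading was above both sorted readings on the deposited scale, as was the median of all probes. The probe lay between percentiles 70.6 and 74.9 on all 6 arrays, and normalized means were 11.03 ± 0.21 in PGC colonies and 11.23 ± 0.10 in GSC colonies, against 11.22 ± 0.08 in sorted cells (SD, n = 2 each). No comparison passed: PGC minus sorted was -0.19 ± 0.14 (95% interval -0.52 to 0.15), GSC minus sorted 0.01 ± 0.14 (-0.33 to 0.34), and PGC minus GSC -0.20 ± 0.14 (-0.53 to 0.14). Without normalization between arrays, which raised the median gene by 0.423 in PGC and 0.465 in GSC colonies relative to sorted cells, GSC colonies stood 0.54 above sorted cells (limma adjusted p = 0.013). Globin genes resemble one another, probe sequences were not used here, and a probe may read a related chain.

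Alas2 encodes the erythroid form of 5-aminolevulinate synthase, the first enzyme of haem synthesis. It read 1361 and 1614 in PGC colonies and 487 and 451 in GSC colonies, against 1554 and 1579 in sorted cells. GSC colonies stood apart at the low end, while on this scale PGC colonies and sorted cells overlapped. The normalized means were 10.45 ± 0.20 in PGC colonies and 8.85 ± 0.04 in GSC colonies, against 11.01 ± 0.02 in sorted cells (SD, n = 2 each). Alas2 was 3.03-fold higher in PGC than in GSC colonies (log2 difference 1.60 ± 0.13, 95% interval 1.29 to 1.91, limma adjusted p = 0.00065). It was 4.48-fold lower in GSC colonies than in sorted cells (-2.16 ± 0.13, limma adjusted p = 3.6e-05). In PGC colonies it was 1.48-fold lower than in sorted cells (-0.56 ± 0.13, limma adjusted p = 0.012). The PGC to sorted call was lost without normalization between arrays (-0.09, limma adjusted p = 0.55) and without either sorted array, while the other 2 calls stood under all 16 alternatives.

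Slc4a1 encodes band 3, the anion exchanger of the red cell membrane. It read 112 and 79.3 in PGC colonies and 107 and 63.6 in GSC colonies, against 48.7 and 50.9 in sorted cells, and lay between percentiles 9.95 and 15.8 on the 6 arrays. The gene was thus under the filter level everywhere and was not tested. Its normalized means were 7.05 ± 0.02 in PGC colonies and 6.89 ± 0.18 in GSC colonies, against 7.00 ± 0.09 in sorted cells (SD, n = 2 each).

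Klf1 encodes a zinc finger factor that binds CACCC motifs of globin and other red cell genes. It read 270.5 and 263 in PGC colonies and 326 and 217 in GSC colonies, against 273 and 284 in sorted cells. GSC colonies spanned the sorted readings, and PGC colonies lay just under them. Normalized means were 8.16 ± 0.10 in PGC colonies and 8.16 ± 0.16 in GSC colonies, against 8.69 ± 0.00 in sorted cells (SD, n = 2 each). The difference from sorted cells was -0.53 ± 0.13 in PGC colonies and -0.52 ± 0.13 in GSC colonies (limma adjusted p = 0.015 for each). Neither call held without normalization between arrays (-0.13, limma adjusted p = 0.39, in PGC colonies and -0.15, limma adjusted p = 0.32, in GSC colonies) or without either sorted array. The PGC call was also lost without PGC replicate 1, and the GSC call without GSC replicate 2. PGC minus GSC colonies had a 95% interval of -0.31 to 0.30.

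Gata1 encodes the zinc finger factor that drives red cell and megakaryocyte maturation. It read 352 and 280.4 in PGC colonies and 383 and 240.2 in GSC colonies, against 755 and 639 in sorted cells. Both sorted readings exceeded all 4 colony readings. Gata1 was 2.84-fold lower in PGC colonies (-1.50 ± 0.16, limma adjusted p = 0.00053) and 2.89-fold lower in GSC colonies (-1.53 ± 0.16, limma adjusted p = 0.00048) than in sorted cells. The colonies differed by 0.03 ± 0.16 (PGC minus GSC, 95% interval -0.37 to 0.43), which did not pass. The 10 Sertoli cell markers summed to 258633 and 228972 in PGC colonies and 357344 and 348426 in GSC colonies, against 462781 and 446968 in sorted cells (deposited intensity). All 10 of those markers were lower in PGC colonies and 9 of 10 in GSC colonies than in sorted cells, and their part in the Gata1 difference was not tested.

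Epor encodes the erythropoietin receptor. It read 289.7 and 190.3 in PGC colonies and 192 and 129 in GSC colonies, against 336 and 307 in sorted cells. Sorted cells were highest, and both GSC arrays lay under the 30th percentile. Epor was 1.77-fold lower in PGC colonies than in sorted cells (-0.83 ± 0.14, limma adjusted p = 0.0032). It was at least 2.04-fold lower in GSC colonies than in sorted cells (limma adjusted p = 0.00045). PGC against GSC colonies did not pass (limma adjusted p = 0.075), and with both GSC arrays dim only a bound of 1.15-fold can be given. Without PGC replicate 2 that comparison passed (limma adjusted p = 0.0496).

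**Figure D2:**
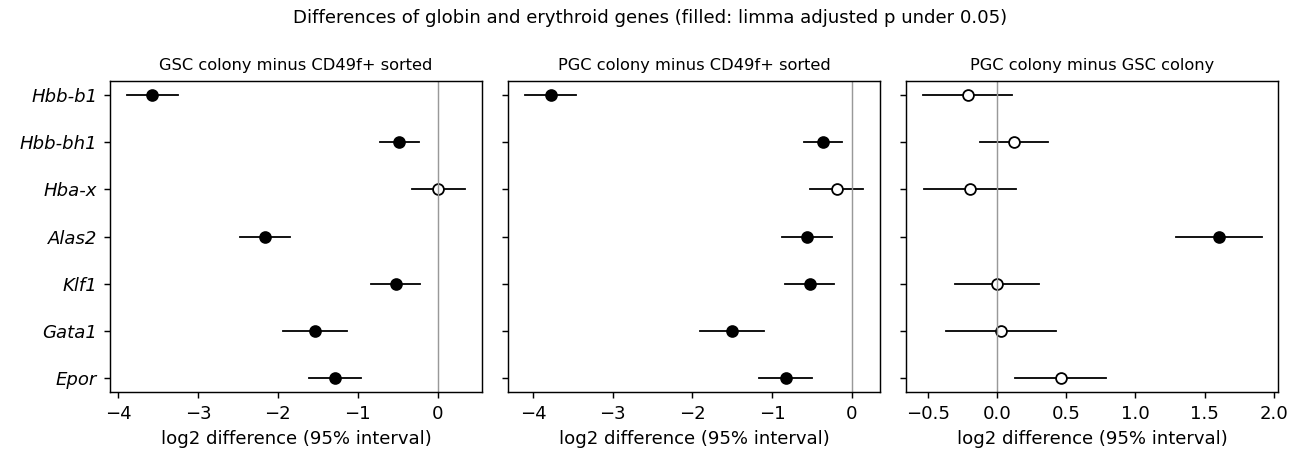
Log2 difference of the 7 tested members (points, with 95% intervals) for GSC colony minus CD49f+ sorted, PGC colony minus CD49f+ sorted and PGC colony minus GSC colony, each panel with its own horizontal scale. Filled points passed the limma test, as 6, 6 and 1 members did, and Hba-x is open in all 3 panels. The points of Hbb-b1, and those of Epor in both comparisons with GSC colonies, are fitted values of probes under the 30th percentile in a group, for which the text gives bounds, or no fold for Hbb-b1 between colonies.

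**Figure D3:**
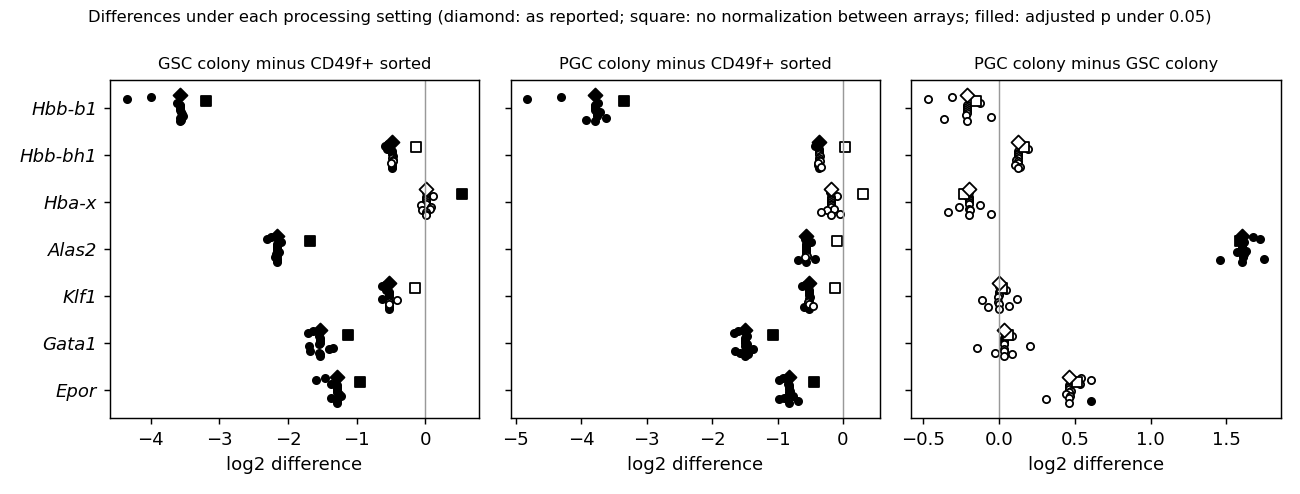
Log2 difference of the 7 tested members (rows) under every processing setting tried, with a diamond for the value as reported, a square for no normalization between arrays and a filled symbol where the adjusted p passed. Gata1 and Epor stay filled against sorted cells, while Hbb-bh1 and Klf1 turn open at the square.

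The windows of 250 bases before the transcription start, from the RefSeq table of build GRCm38.p6, are shown for the tested members that had one, since GATA and CACCC words there are the letters Gata1 and Klf1 bind. They lie at chr11:32276350-32276599 on the plus strand (Hba-x), chrX:150547167-150547416 on the plus strand (Alas2), chr8:84901732-84901981 on the plus strand (Klf1), chrX:7967911-7968160 on the minus strand (Gata1) and chr9:21963577-21963826 on the minus strand (Epor). Capitals mark CACCC, the word AGATAA, the form TGATAA, the form AGATAG and the form TGATAG on either strand, so the reverse complements are in capitals too, and each sequence runs 5′ to 3′ on its gene's strand.
Hba-x: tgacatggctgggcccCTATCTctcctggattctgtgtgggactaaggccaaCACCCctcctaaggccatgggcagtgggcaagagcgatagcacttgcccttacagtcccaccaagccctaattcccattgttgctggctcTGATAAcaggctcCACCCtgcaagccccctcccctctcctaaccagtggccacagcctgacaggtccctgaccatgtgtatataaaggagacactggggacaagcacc
Alas2: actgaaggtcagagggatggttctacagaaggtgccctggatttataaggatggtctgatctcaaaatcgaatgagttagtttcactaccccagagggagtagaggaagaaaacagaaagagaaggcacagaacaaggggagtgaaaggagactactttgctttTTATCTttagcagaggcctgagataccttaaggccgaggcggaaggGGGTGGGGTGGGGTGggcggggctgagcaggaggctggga
Klf1: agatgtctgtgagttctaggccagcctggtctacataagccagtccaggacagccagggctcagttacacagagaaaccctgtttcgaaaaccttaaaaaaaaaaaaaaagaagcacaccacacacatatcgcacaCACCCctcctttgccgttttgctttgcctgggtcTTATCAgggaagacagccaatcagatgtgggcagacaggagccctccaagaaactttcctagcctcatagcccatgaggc
Gata1: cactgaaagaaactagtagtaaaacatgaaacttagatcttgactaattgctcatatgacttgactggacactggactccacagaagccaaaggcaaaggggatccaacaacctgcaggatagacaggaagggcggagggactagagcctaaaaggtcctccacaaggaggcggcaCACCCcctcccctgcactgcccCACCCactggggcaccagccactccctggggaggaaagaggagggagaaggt
Epor: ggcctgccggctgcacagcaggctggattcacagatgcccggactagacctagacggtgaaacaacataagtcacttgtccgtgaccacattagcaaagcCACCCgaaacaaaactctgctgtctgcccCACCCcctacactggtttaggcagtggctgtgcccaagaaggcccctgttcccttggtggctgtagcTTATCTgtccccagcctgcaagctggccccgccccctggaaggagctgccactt

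Of the 6 members with a window in that table, Hba-a1 included, 5 held a GATA word and 6 held CACCC. Over all 32851 windows of 27025 genes, 26.5% held a GATA word, 52.0% CACCC and 11.8% both. The Alas2 window holds 3 CACCC words on the minus strand, in a row, and 1 GATA word, and the Gata1 window holds 2 CACCC words and no GATA word. Hba-x, which passed in no comparison, has 2 of each kind, and so do the windows of Alas2, Klf1 and Epor hold both kinds. A match describes the letters and shows no binding.

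The wider haem pathway did not move as 1 block. For this and the following lists, the counts against sorted cells stand beside 22.8% higher and 23.2% lower over all tested genes in PGC colonies, and 22.5% higher and 24.5% lower in GSC colonies. Counts of PGC against GSC colonies stand beside 7.08% higher and 7.98% lower over all tested genes. Those shares are with normalization between arrays. Without it, many more of all genes were higher than lower in both kinds of colony, as counted in the closing section. List counts without normalization are to be read beside those. List counts with a replicate left out stand beside the calls over all genes in the closing section, given there without direction. Of 16 tested genes of haem synthesis, 6 were higher and 7 lower in PGC colonies, and 3 higher and 5 lower in GSC colonies, than in sorted cells. Abcb10, a mitochondrial transporter that steadies iron import for haem, differed by -1.29 in PGC and -1.85 in GSC colonies. Tmem14c, a mitochondrial porphyrin carrier, differed by -1.84 in PGC and -1.14 in GSC colonies, and Alad, the second enzyme of the pathway, by -1.34 and -1.02 in the same order. The list's median was -0.12 in PGC and -0.14 in GSC colonies, near the -0.02 and -0.01 of all tested genes. Uros, a later enzyme, rose by 0.48 in PGC and 0.88 in GSC colonies. Alas1, the housekeeping form of the first enzyme, was lower in PGC colonies than in GSC colonies (-0.45 ± 0.11, limma adjusted p = 0.042), opposite in sign to Alas2. Between PGC and GSC colonies 4 genes of the list were higher and 2 lower, and 2 and 1 without either GSC or either sorted array. Without normalization between arrays the list counted 8 higher and 3 lower in PGC colonies and 10 higher and 4 lower in GSC colonies; without either sorted array, PGC colonies had 3 higher and 5 lower.

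Red cell membrane genes also went both ways, in shares near those of all tested genes. Of 13 tested, 3 were higher and 4 lower than in sorted cells in each kind of colony, with medians of -0.28 in PGC and -0.36 in GSC colonies. Aqp1, a water channel of red cells and endothelium, was at 10.85 in PGC and 8.68 in GSC colonies, against 11.36 in sorted cells, so that it was higher in PGC than in GSC colonies by 2.16 ± 0.13 (limma adjusted p = 0.00021), as Alas2 was. Xk, a membrane protein of the Kell complex, differed from sorted cells by -2.04 in PGC and -1.83 in GSC colonies. Tmod1, which caps actin filaments in the membrane skeleton, was at least 1.73-fold higher in PGC and at least 4.36-fold higher in GSC colonies. Gypc, a glycophorin, rose by 1.65 in PGC and 1.62 in GSC colonies. Between PGC and GSC colonies 1 gene was higher and 1 lower. The counts against sorted cells became 5 higher and 2 lower in PGC colonies, and 4 higher and 3 lower in GSC colonies, without normalization between arrays.

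Among 13 tested erythroid transcription factors, 2 were higher and 8 lower in PGC colonies, and 3 higher and 8 lower in GSC colonies, than in sorted cells, with medians of -1.50 and -1.53. Cbfa2t3, a co-repressor in the Tal1 and Gata1 complex, differed by -3.81 ± 0.17 in PGC and -4.62 ± 0.17 in GSC colonies. Zfpm1, the Gata1 cofactor FOG-1, differed by -2.92 in PGC and -2.80 in GSC colonies, and Lmo2, a bridging protein of that complex, by -2.76 and -2.91 in the same order. Nfe2, a factor that binds the globin control region, differed by -2.60 in PGC and -3.09 in GSC colonies. Tal1 was at least 3.36-fold lower in PGC and at least 3.35-fold lower in GSC colonies. Tal1 and Lyl1, both among the lower factors, passed the filter only through the 2 sorted arrays. Klf3 and Ldb1 went the other way. Klf3 rose by 1.21 in PGC and 1.50 in GSC colonies. Ldb1 rose by 0.36 in PGC (limma adjusted p = 0.047) and 0.41 in GSC colonies (limma adjusted p = 0.032). Gata2, which acts in stem and progenitor cells before Gata1, was at 8.42 in PGC and 11.59 in GSC colonies, against 8.52 in sorted cells. In GSC colonies it was higher than in sorted cells by 3.06 ± 0.11 (limma adjusted p = 6.3e-06), while Gata1 was lower there, and PGC minus GSC colonies gave -3.16 ± 0.11 (limma adjusted p = 3.3e-05). Without either sorted array 11 of these factors were tested, with 1 higher and 5 lower in PGC colonies and 2 higher and 5 lower in GSC colonies. Arrays left without normalization between them gave 4 higher and 7 lower in each kind of colony. Between PGC and GSC colonies 1 factor was higher and 1 lower, and without GSC replicate 2 0 higher and 1 lower.

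Of 14 tested genes of erythropoietin signalling, 1 was higher and 8 were lower in PGC colonies, and 3 were higher and 8 lower in GSC colonies, than in sorted cells, with medians of -0.61 and -0.57. Cish, a feedback inhibitor that Stat5 induces, differed by -2.18 ± 0.26 in PGC and -2.05 ± 0.26 in GSC colonies. Jak2, the kinase bound to Epor, rose by 1.00 in PGC and 1.44 in GSC colonies, opposite to its receptor. Epo itself passed in no comparison, with differences of -0.22 (PGC minus sorted), 0.15 (GSC minus sorted) and -0.37 (PGC minus GSC). Of the list, 0 genes were higher and 3 lower in PGC than in GSC colonies, with Socs3, an inhibitor of Jak kinases, at -1.65 ± 0.18 (limma adjusted p = 0.0024). Without normalization between arrays the counts were 3 higher and 6 lower in PGC colonies and 6 higher and 4 lower in GSC colonies.

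Of 15 tested genes of iron and haem handling, 4 were higher and 6 lower in PGC colonies, and 4 higher and 3 lower in GSC colonies, with medians of 0.09 and 0.10. Tfrc, the transferrin receptor, differed from sorted cells by -1.61 in PGC and -2.39 in GSC colonies and was higher in PGC than in GSC colonies by 0.78 ± 0.11 (limma adjusted p = 0.0057). Slc40a1, the iron exporter ferroportin, rose by 1.20 in PGC and 1.06 in GSC colonies. The counts were 8 higher and 4 lower in PGC colonies and 9 higher and 2 lower in GSC colonies without normalization between arrays. Between PGC and GSC colonies 2 were higher and 2 lower, and 1 and 1 without GSC replicate 2.

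Of 9 tested red cell enzymes and maturation genes, 0 were higher and 4 lower in PGC colonies, and 0 higher and 2 lower in GSC colonies, with medians of -0.32 and -0.14. Tent5c, a poly(A) polymerase, differed by -3.68 in PGC and -2.51 in GSC colonies. Car2, a carbonic anhydrase, differed by -1.02 in PGC colonies and by -0.01 in GSC colonies, where it did not pass. Ube2o, a ubiquitin enzyme of reticulocytes, differed by -0.32 in PGC and -0.33 in GSC colonies and changed sign in both without normalization between arrays, under which the list counted 2 higher and 2 lower in PGC and 5 higher and 1 lower in GSC colonies. Between PGC and GSC colonies 0 were higher and 3 lower. The GSC count against sorted cells fell to 1 without either GSC or either sorted array.

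Of 3 tested globins outside the haemoglobin chains, 2 were higher in PGC colonies and 1 in GSC colonies than in sorted cells. Mb, myoglobin, was higher in PGC colonies than in GSC colonies (1.20 ± 0.12, limma adjusted p = 0.0013) and than in sorted cells (0.88 ± 0.12, limma adjusted p = 0.0012). Cygb, cytoglobin, was higher in both colonies than in sorted cells, by 0.65 ± 0.21 in PGC and 1.50 ± 0.21 in GSC colonies, and PGC minus GSC gave -0.85 ± 0.21 (limma adjusted p = 0.043). The PGC count fell to 1 without either sorted array or PGC replicate 1. Ngb, neuroglobin, passed in no comparison, and Hbq1a, Hbq1b and the embryonic beta-type Hbb-bh2 were dim on all 6 arrays, under the filter level, and were not tested.

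**Figure D4:**
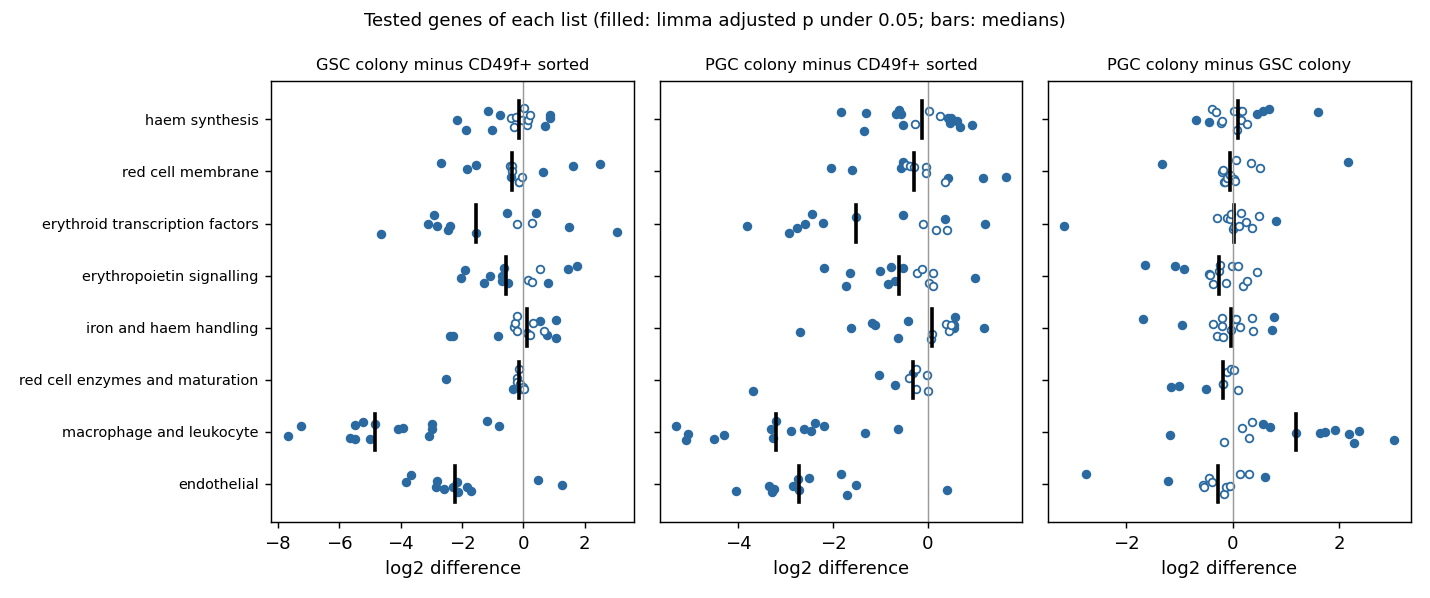
Log2 difference of the tested genes of 6 erythroid lists and of the macrophage and endothelial lists (rows), for GSC colony minus CD49f+ sorted, PGC colony minus CD49f+ sorted and PGC colony minus GSC colony, with filled points past the limma test and bars at list medians. Transcription factors have medians of -1.53 and -1.50 against sorted cells, haem synthesis lies near 0, and macrophage genes have medians of -4.82 and -3.20.

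Markers of other blood and vessel cells differed between the same groups as the members, and so did those of fibroblasts and mesenchyme. The 8 tested fibroblast and mesenchyme markers were all higher in each kind of colony than in sorted cells, with medians of 3.93 in PGC and 4.80 in GSC colonies. The 9 with a probe summed to 287986 and 274716 in PGC colonies and 641828 and 673112 in GSC colonies, against 18315 and 16769 in sorted cells (deposited intensity). All 15 tested macrophage and leukocyte markers were lower in each kind of colony than in sorted cells, and their summed deposited intensity was 22254 and 18038 in PGC colonies and 10019.7 and 9329 in GSC colonies, against 135952 and 140772 in sorted cells. The 10 megakaryocyte and platelet markers summed to 2376 and 2150.3 in PGC colonies and 2386 and 1579 in GSC colonies, against 12008 and 12462 in sorted cells. On the sorted arrays 6 and 4 of these 10 markers lay under the 30th percentile, so the sums rest on the other markers. Of the 6 tested, 3 were lower and 1 higher in each kind of colony, with medians of -0.36 in PGC and -0.34 in GSC colonies. Pf4, a platelet chemokine, was at least 59.3-fold lower in PGC and at least 59.2-fold lower in GSC colonies. Most of the megakaryocyte and platelet sums on the sorted arrays came from Pf4, so those sums describe 1 gene more than the list. Pf4 passed the filter only through the 2 sorted arrays, where it was high, so its place among the 3 lower had to come with a difference. Of 12 endothelial markers, 11 were lower and 1 higher in PGC colonies, and 10 lower and 2 higher in GSC colonies. Their sums were 109182 and 102999.9 in PGC colonies and 130443 and 142797 in GSC colonies, against 105488 and 105344 in sorted cells. The endothelial sums did not follow the counts. They are of deposited intensity, which was not normalized between arrays and had a higher median on the colony arrays. Macrophage markers were higher in PGC than in GSC colonies for 10 of 15, as Alas2 was, and lower for 1 (Cd14, -1.18 ± 0.11), beside 7.08% higher and 7.98% lower over all tested genes. Tal1, Lmo2 and Lyl1 are also made by blood and vessel cells outside the red lineage, and the part of these cells in the differences of the members was not tested.

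For a profile over the 6 arrays, likeness was the root mean square distance between centred log2 values, as a description. Hbb-b1, with its colony readings under the filter level, is left out here. The mean of Alas2, Klf1, Gata1 and Epor, which spans 1.50, was closest to Bik at 0.0586, Skp2 at 0.0621, Mcm5 at 0.0653, Rpgr at 0.0715 and Ccdc28b at 0.0733. Bik lay under the filter level on every colony array and passed the filter only through the sorted arrays. Epor, part of that mean, lay under the filter level on both GSC colony arrays. The mean of Hbb-bh1 and Hba-x spans 0.392, and its closest genes were Ddn at 0.0212, Gphb5 at 0.0237 and Klf11 at 0.0274. With so flat a profile, any gene that varied little comes close.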

How the data were processed

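The deposited table gives linear Cy5 intensity for 26423 probes on 6 arrays, with some values below 0; how the authors subtracted background, scanned and scaled is not given in the sources used here. Probes were named from the platform table: 21876 carried 1 symbol, 0 several and 4547 none, and 0 symbols were updated. The members and lists were chosen with earlier results of these data known.

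Intensities were corrected with normexp (offset 50), log2 transformed and quantile normalized between arrays in limma 3.58.1 (R 4.3.3). The probe with the highest mean stood for its gene, and genes with 2 or more of 6 arrays reaching the array's 30th percentile were tested (log2 level 7.82). A fit with a mean per group over all 6 arrays left 3 residual degrees of freedom, and p-values were Benjamini-Hochberg adjusted over 15459 genes, with a threshold of 0.05. The median SE was 0.134, and 2 arrays per group limit the precision. The fit was tested on simulated data.

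All 9 members are named. From each list, the genes named come from the 2 largest rises and falls past the threshold in a comparison, plus every measured globin; Epo, Tal1, Lmo2, Lyl1, Dppa3 and Tdrd1 lie outside that rule and were chosen after their values were seen. Likeness used the closest genes outside the members. Alternatives changed the background correction, normalization, filter, probe rule, samples in the fit, block and each replicate left out. Promoter windows came from RefSeq.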

Additional observations from a re-analysis of the deposited data

How the results depend on the processing

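Among members other than Hbb-b1, calls that held under every alternative giving a value were those of Gata1 (16 alternatives) and Epor (15) against sorted cells in both kinds of colony, and of Alas2 in GSC colonies against sorted cells and in PGC against GSC colonies (16 each, -2.30 to -1.68 and 1.46 to 1.75). The Hbb-b1 calls against sorted cells also held in all 14 alternatives giving a value. With the filter, however, Hbb-b1 was tested only through the sorted arrays, where it was high. Of all differences of the members, 294 kept their side of the threshold, 23 lost their call, 2 gained one, and 1 lost its call and changed sign: Hbb-bh1 in PGC colonies minus sorted cells without normalization between arrays, at 0.031. Some differences of Hba-x, Klf1 and Gata1 that passed in neither setting changed sign too, as Hba-x in PGC colonies minus sorted cells did without normalization between arrays (0.30). Calls were lost in 8 of 15 alternatives for Hbb-bh1 in PGC colonies and 5 of 15 in GSC colonies, in 4 of 15 for Klf1 in each, and in 3 of 16 for Alas2 in PGC colonies minus sorted cells.

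Members called numbered 3 in each comparison with sorted cells under a filter at the 50th percentile, which left fewer genes tested. Hbb-bh1, Klf1 and Epor lay under that percentile on every array and were not tested there, so their absence is no lost call. Members called numbered 3 in PGC colonies minus sorted cells without normalization between arrays. Leaving out each replicate gave 2 to 5 members in PGC colonies minus sorted cells, 3 to 6 in GSC colonies minus sorted cells and 1 to 2 in PGC minus GSC colonies. Over all genes it gave 5046 to 7051, 5193 to 7762 and 1445 to 2039 calls in the same order, against 7111, 7279 and 2329; the lowest PGC minus GSC counts were 1445 without GSC replicate 1 and 1527 without PGC replicate 2. Without normalization between arrays 7573 genes were higher and 1838 lower in PGC colonies than in sorted cells, against 3517 and 3594 with it, and in GSC colonies 8179 were higher and 1732 lower, against 3486 and 3793.

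Correlations of the deviations of same-numbered replicates were -0.179 between PGC and GSC colonies and -0.342 between GSC colonies and sorted cells. Between PGC colonies and sorted cells the correlation was 0.326. The signs were mixed, and these correlations cannot settle whether the numbers pair the samples. With the replicate number as a block, 6637, 6804 and 1707 genes were called in PGC minus sorted, GSC minus sorted and PGC minus GSC, and 5, 6 and 1 members. With GSC colony numbers crossed, a pairing chosen after seeing the data, the counts were 7672, 7831 and 2703 genes and 6, 6 and 1 members. For probes under the 30th percentile, such as Hbb-b1 in colonies and Slc4a1 on all arrays, the signal over background gives a bound or no test.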
